A study of Mus musculus with 2 samples.

Results

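Axon guidance genes were examined in whole lung of the embryonic mouse: ephrins and Eph receptors, semaphorins and plexins, Slits and Robos, and netrins and Unc5 receptors. The members are the protein-coding genes that carry those family names, namely Epha, Ephb, Efna and Efnb, Sema3 to Sema7, Plxna to Plxnd, Slit1 to Slit3, Robo1 to Robo3, Ntn1 and Ntn3 to Ntn5, and Unc5a to Unc5d. They were chosen by symbol, without regard to level. The annotation holds 65 such genes, and 64 of them had a row in the deposited tables, among 21474 rows for protein-coding genes. Ntn3 had no row under its gene identifier and was not analysed here.

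The tissue was lung dissected from B6NCrl embryos at 16.5 days, with males and females pooled and no treatment or altered allele named in the labels. The 2 total RNA-seq libraries form 1 group and carry the biological replicate numbers 1 and 2. The labels count 41 embryos in the pool of replicate 2 and state no number for replicate 1. Replicate 1 held 38852470 expected counts, the authors' estimates of reads per gene, and replicate 2 held 27145411. With a single group there were no conditions to compare, so the levels of the members, their ratios inside a library and the spread between the libraries are described, as mean ± SD over n = 2 and without p-values. Levels are in TPM, a scaled share of the library per unit of transcript length, so that different genes can be set side by side. The precision is that of 2 pools. By counting error alone, a gene of 2 kb without a count could still reach 0.0574 TPM (replicate 1) or 0.0810 TPM (replicate 2). In whole-tissue RNA, fewer cells of a type and less RNA per cell cannot be told apart.

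These families were first described as cues that attract or repel growing axons, and most act where cells touch or over short distances. Ephrins are bound to the membrane and signal in both directions when they meet an Eph receptor tyrosine kinase on a neighbouring cell, while most class 3 semaphorins are secreted and reach plexins together with neuropilins. Slits bind Robo receptors, and netrins bind Dcc, neogenin and Unc5 receptors. In lung and in other organs the same proteins are known for the patterning of vessels, the sorting of arteries from veins, and the shaping of branching epithelium.

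Detection required a level of at least 1 TPM in each library. All 7 lung marker genes were detected, with Sftpc, a surfactant gene of distal epithelium, at 10883 and 14172 TPM, and so were all 6 endothelial genes, with summed levels of 718 and 701 TPM. Genes of other organs differed between the pools. All 9 liver genes were higher in replicate 2, with sums of 202 and 893 TPM, as were all 8 skeletal muscle genes, at 205 and 568 TPM, and all 8 thymus and T cell genes compared, at 25.2 and 64.0 TPM over the whole list of 9. Of the 7 cardiac genes, 6 were lower in replicate 2, with sums of 1070 and 815 TPM. Peripheral neuron genes summed to 25.9 and 33.8 TPM and Schwann cell genes to 38.5 and 40.1 TPM. No gene of these lists was listed at 0 in both libraries.

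Most guidance genes were expressed in the lung at this age. Of the 64 members, 52 were detected, and 26 reached 10 TPM in both libraries. Among all protein-coding genes 61.5% were detected and 40.3% reached 10 TPM, so the members lay above the first share and at about the second. The median member was at 8.65 and 8.46 TPM (8.55 ± 0.138), beside 4.87 ± 0.219 TPM for the median protein-coding gene. The 34 ligand genes summed to 420 ± 0.820 TPM and the 30 receptor genes to 434 ± 13.2 TPM. Detection was 28 of 34 for ligands and 24 of 30 for receptors. Plxnb2 alone held 12.6% and 12.8% of the TPM of all members.

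**Figure D1:**
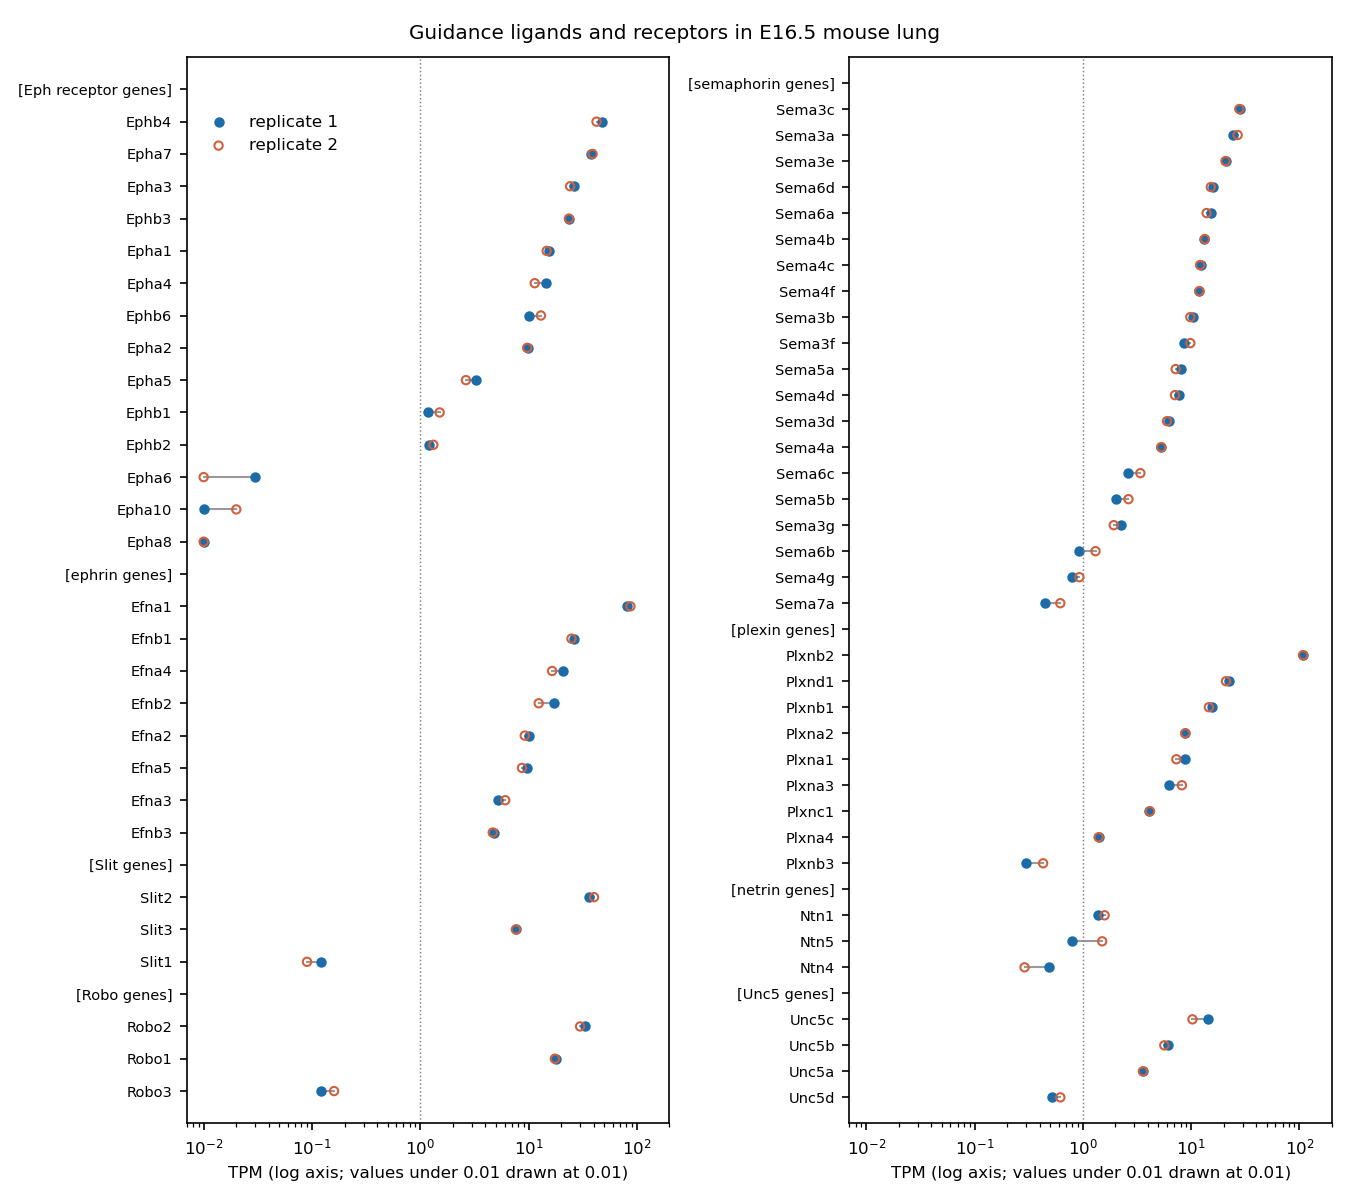
TPM of each member in replicate 1 (filled) and replicate 2 (open) on a log axis, grouped by family, with a dotted line at 1 TPM. Plxnb2 and Efna1 stand highest, at 108 and 84.4 TPM on average, while Epha6, Epha8 and Epha10 lie at or under 0.0300 TPM, with values under 0.0100 TPM drawn at that level.

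All 8 ephrins and 11 of the 14 Eph receptors were detected. Ephrin levels summed to 176 and 170 TPM, and Eph receptor levels to 191 and 184 TPM. Efna1, a membrane-anchored ligand of EphA receptors first found as a gene induced by cytokines in endothelium, led the ephrins at 81.6 and 87.2 TPM (84.4 ± 3.97). It lies on chromosome 3 (89271733 to 89281142, minus strand, build mm10), ranked above 91.2% of protein-coding genes, and made up 46.4% of ephrin TPM in replicate 1 and 51.4% in replicate 2. Efnb1, a transmembrane ephrin known from craniofacial boundaries, followed at 26.5 and 24.9 TPM. Efna4, named after its values were seen, was at 20.7 and 16.5 TPM. The lowest ephrin was Efnb3, at 4.80 and 4.67 TPM. The A ephrins spanned 5.66 ± 0.608 TPM (Efna3, likewise) to 84.4 TPM, and the B ephrins 4.74 to 25.7 TPM.

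Ephb4, the EphB receptor of venous endothelium, led the Eph receptors at 47.8 and 42.4 TPM (45.1 ± 3.81; chromosome 5, 137350109 to 137378669, plus strand). Its transmembrane ligand Efnb2, known as a marker of arterial endothelium, stood at 17.2 and 12.4 TPM (14.8 ± 3.39; chromosome 8, 8617434 to 8661242, minus strand). Both replicates of the receptor lay above both of the ligand. Epha7 was at 37.5 and 39.0 TPM, Epha3 at 26.3 and 24.2 TPM and Ephb3 at 23.7 and 23.6 TPM. These 3 encode receptor tyrosine kinases, the EphA pair for A ephrins and Ephb3 for B ephrins. Every EphB receptor passed detection, including Ephb2 at 1.21 and 1.32 TPM and Ephb1 at 1.19 and 1.51 TPM, the detected members closest to the 1 TPM line. Among EphA receptors 6 of 9 passed. The other 3, Epha6, Epha8 and Epha10, named after their values were seen, rested on 0 to 2 expected counts per library. That is under 3, the true mean that an observed count of 0 could hide. Epha8 was the lowest member of the whole set at 0 and 0.0100 TPM.

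The promoters of this receptor and ligand and of the lowest member are shown because they differ in CG content, a step of C followed by G that is rare in most of the genome and dense in CpG islands. Each run is 5′ to 3′ on the strand of the gene, from 250 bases before to 50 after the RefSeq start site, from the RefSeq promoter table of build GRCm38.p6, with each CG in capitals. The windows are chr8:8661193-8661492 (minus strand) for Efnb2, chr5:137349859-137350158 (plus strand) for Ephb4 and chr4:136956767-136957066 (minus strand) for Epha8, and in all 3 the start site is that of the annotated first transcript.
Efnb2: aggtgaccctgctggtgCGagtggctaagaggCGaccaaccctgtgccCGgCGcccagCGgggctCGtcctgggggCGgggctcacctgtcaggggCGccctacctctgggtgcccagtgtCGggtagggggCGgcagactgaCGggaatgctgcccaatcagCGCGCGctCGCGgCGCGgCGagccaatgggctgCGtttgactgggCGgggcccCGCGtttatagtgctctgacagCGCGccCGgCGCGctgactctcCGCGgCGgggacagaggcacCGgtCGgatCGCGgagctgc
Ephb4: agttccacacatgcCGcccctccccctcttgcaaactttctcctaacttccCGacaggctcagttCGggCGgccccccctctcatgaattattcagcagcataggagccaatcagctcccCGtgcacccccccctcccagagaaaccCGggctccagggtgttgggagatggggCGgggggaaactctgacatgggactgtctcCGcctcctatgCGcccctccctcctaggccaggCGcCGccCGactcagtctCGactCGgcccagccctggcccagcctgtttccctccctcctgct
Epha8: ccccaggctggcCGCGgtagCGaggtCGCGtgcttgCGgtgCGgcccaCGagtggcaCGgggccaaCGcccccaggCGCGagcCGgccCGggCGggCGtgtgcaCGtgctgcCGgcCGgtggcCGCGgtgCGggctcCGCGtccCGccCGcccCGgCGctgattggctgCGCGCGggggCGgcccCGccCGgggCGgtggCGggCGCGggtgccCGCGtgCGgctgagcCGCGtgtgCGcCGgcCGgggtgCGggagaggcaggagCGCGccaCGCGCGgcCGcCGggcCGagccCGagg
The Efnb2 window holds 35 CG and 72.3% G + C, more CG than 93.0% of the 32851 promoters in the table. The Ephb4 window holds 14 CG, more than 63.7% of promoters. Epha8, at or near 0 counts, holds 56 CG, more than 99.8% of promoters, so a dense run of CG stood before a gene with almost no RNA in this tissue.

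Of the 20 semaphorins 17 were detected, and of the 9 plexins 8. Semaphorin levels summed to 198 TPM in each library and plexin levels to 177 and 174 TPM. All 7 class 3 semaphorins, the secreted class, passed, with a sum of 102 ± 1.13 TPM. Sema3c, known from the cardiac outflow tract, had the highest gene TPM among semaphorins at 28.4 and 27.9 TPM (28.2 ± 0.368; chromosome 5, 17574281 to 17730268, plus strand). Sema3a, the classical repellent of sensory axons, was at 24.5 and 26.9 TPM, and Sema3e, a ligand of plexin D1 in vessels, at 21.1 and 20.8 TPM. The ranges of these 3 were apart, but over coding transcripts Sema3a, at 24.5 and 26.9 TPM, lay above Sema3c, at 19.5 and 19.8 TPM. Per kb of merged exons Sema3c, at 33.7 and 32.4, lay above Sema3a, at 16.8 and 17.5, so their order depends on the unit. Among class 4 semaphorins 5 of 6 passed, from 0.865 to 13.3 TPM on average, and among class 6 semaphorins 3 of 4, from 1.12 to 15.6 TPM, both classes of transmembrane proteins. Both class 5 members passed, at 2.33 and 7.60 TPM on average. Sema7a, a membrane-anchored ligand of plexin C1 and integrins, was the lowest semaphorin at 0.450 and 0.620 TPM. Sema6b straddled the line, at 0.930 and 1.31 TPM.

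Sema3a is shown as the opposite case to Epha8, a member above 20 TPM with few CG in the window at its RefSeq start (chr5:13396534-13396833, plus strand, GRCm38.p6, CG in capitals).
Sema3a: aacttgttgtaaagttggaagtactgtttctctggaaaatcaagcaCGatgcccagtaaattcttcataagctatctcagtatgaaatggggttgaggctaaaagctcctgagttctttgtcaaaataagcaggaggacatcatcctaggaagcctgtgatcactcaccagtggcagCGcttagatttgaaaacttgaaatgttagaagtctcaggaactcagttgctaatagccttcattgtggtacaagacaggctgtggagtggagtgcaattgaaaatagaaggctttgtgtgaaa
This window holds 2 CG and 41.3% G + C, more CG than 14.1% of promoters, the lowest count among the members matched. Its start site lies 2525 bases before that of Sema3a-201, the transcript with most of the Sema3a level in both libraries.

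Plxnb2, a plexin known from epithelial and neural tissue that binds class 4 semaphorins, was the highest member by gene TPM at 109 and 108 (108 ± 1.01; chromosome 15, 89155549 to 89180788, minus strand). Per kb of merged exons, in expected counts scaled by library, it was at 98.1 and 95.5, below Efna1 at 119 and 127. It made up 61.7% and 62.0% of plexin TPM. Plxnd1, the endothelial receptor of Sema3e, was at 22.6 and 21.0 TPM, and Plxnb1, the receptor of Sema4d, at 15.7 and 14.6 TPM. The 4 A plexins, which work with neuropilins for class 3 and alone for class 6 semaphorins, were all detected, from 1.41 to 8.77 TPM on average, and summed to 25.4 ± 0.453 TPM. The lowest plexin was Plxnb3 at 0.300 and 0.430 TPM.

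Slits and Robos each had 1 member under 1 TPM. Slit2, a secreted repellent, was at 35.9 and 40.2 TPM (38.0 ± 3.09; chromosome 5, 47983138 to 48307733, plus strand) and made up 82.3% and 83.9% of Slit TPM. Slit3 was at 7.60 and 7.64 TPM, and Slit1 at 0.120 and 0.0900 TPM on 16 and 8 expected counts. Of the receptors Robo2 was at 33.1 and 29.9 TPM and Robo1 at 17.8 and 17.5 TPM. Robo3, known for axons that cross the midline, was at 0.120 and 0.160 TPM. Slit and Robo sums of gene TPM were 43.6 and 51.1 in replicate 1 and 48.0 and 47.6 in replicate 2, so which side was larger differed between the libraries. Over coding transcripts Slit2 was at 16.9 and 16.8 TPM and Slit3 at 6.16 and 5.32 TPM. Robo2 was then at 21.1 and 18.3 TPM and Robo1 at 17.8 and 17.5 TPM, so Slits lay below Robos in both libraries.

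Netrins were the lowest family. Of the 3 with a row, only Ntn1, a secreted laminin-like cue, was at 1 TPM or more in both libraries, at 1.39 and 1.59 TPM. Ntn5 was at 0.800 and 1.51 TPM on 33 and 43 expected counts, and Ntn4, a netrin of basement membranes, at 0.490 and 0.290 TPM on 45 and 16. The count of netrins detected depended on the unit and limit, from 0 as FPKM to 2 per kb of merged exons or in replicate 2 alone. Their receptors of the Unc5 family were higher, at sums of 24.6 and 20.2 TPM. Unc5c led them at 14.4 and 10.3 TPM, Unc5b, the family member known from endothelium, was at 6.09 and 5.66 TPM, and Unc5d was lowest at 0.520 and 0.620 TPM.

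Set against each other inside a library as sums of gene TPM, ligands and receptors were near balance in 3 of the 4 systems. The sign of a log2 ratio counts as held here if the libraries share it and their mean is more than 2 SD from 0. With an SD from 2 libraries this is a descriptive rule and not a level of confidence. Genes at equal levels can also meet it. The ephrin sum lay below the Eph receptor sum (log2 ratio -0.12 ± 0.00), the semaphorin sum above the plexin sum (0.18 ± 0.02) and the netrin sum well below the Unc5 sum (-2.89 ± 0.44), all 3 held. The Slit over Robo ratio, -0.11 ± 0.17, was not held. Over coding transcripts and per kb of merged exons, members with a mean of at least 1 TPM were also summed. By either unit the ephrin sum lay above the Eph receptor sum in both libraries, so the order of these families is uncertain. The Slit sum lay below the Robo sum in both libraries by either unit. Neuropilins, Dcc and neogenin are not in these sums.

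Among 24 ratios between single members 19 signs were held. Efnb2 over Ephb4 was -1.47 and -1.77 on the log2 scale (-1.62 ± 0.21), and Efnb2 over Efnb1 was -0.81 ± 0.27, a sign no longer held in counts not divided by length (-0.39 ± 0.28). Ephb4 exceeded its relatives Ephb3 (0.93 ± 0.11) and Ephb2 (5.16 ± 0.21). Efna1 exceeded Efna5, a neural A ephrin (3.20 ± 0.18), and its receptor Epha2 (3.11 ± 0.09). Of the plexin family ratios, Plxnb2 over Plxnb1 was 2.84 ± 0.06 and Sema4d over Plxnb1 was -1.02 ± 0.02, whereas Plxna1 over Plxna2 was -0.13 ± 0.20 and not held. Ligands below their receptors also included Sema7a under Plxnc1 (-2.97 ± 0.31) and Ntn1 under Unc5b (-1.98 ± 0.21). Sema6d, a transmembrane ligand of Plxna1, stood above it (0.96 ± 0.13), a sign no longer held per kb of merged exons (0.14 ± 0.13).

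Secreted cues were compared in the same way. Sema3f lay below Sema3a (-1.48 ± 0.04), a held sign, while Sema3c over Sema3a (0.13 ± 0.11), Sema3b over Sema3f (0.14 ± 0.20), Sema3e over Plxnd1 (-0.06 ± 0.06) and, among receptors, Epha2 over Epha4 (-0.39 ± 0.22) were not held. Sema3e lay below Plxnd1 with a held sign per kb of merged exons (-0.55 ± 0.05), in counts not divided by length (-0.20 ± 0.05) and over coding transcripts (-0.66 ± 0.02). Sema3c over Sema3a was held in opposite directions, at 0.95 ± 0.09 per kb and -0.39 ± 0.08 over coding transcripts. Slit2 exceeded Slit3 (2.32 ± 0.11) and Slit1 (8.51 ± 0.41, on few counts for Slit1), and Ntn4 lay below Ntn1 (-1.98 ± 0.67). Ratios that were held but turned with the treatment of transcript length were Sema3c over Plxnd1 (0.37 ± 0.06 as TPM, -0.25 per kb of merged exons), Slit2 over Robo1 (1.10 ± 0.13 and -0.23), Robo1 over Robo2 (-0.83 ± 0.09 and 0.16) and Unc5b over Unc5c (-1.05 ± 0.27 and 0.66). For these 4 and for Sema6d and Plxna1 the order of the genes is uncertain. Per kb of merged exons Slit2 over Slit3 fell to 0.44 ± 0.17 and Slit2 over Slit1 to 6.29, Plxnb2 over Plxnb1 was 2.04 and Sema3f over Sema3a -0.79, with signs that were still held.

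**Figure D2:**
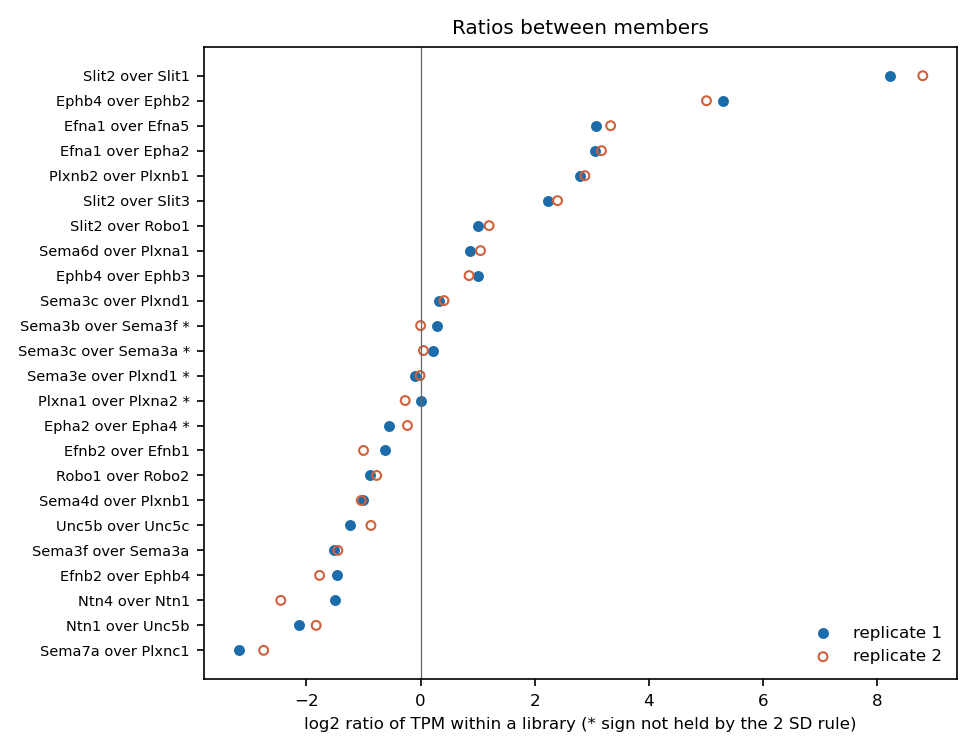
log2 ratio of TPM between named members inside replicate 1 (filled) and replicate 2 (open), sorted by mean, with a line at equal levels and a star where the sign was not held. The 5 starred ratios lie between -0.39 and 0.14 on average, and Slit2 over Slit1 stands highest at 8.51.

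Ordered by mean, the 13 members at 20 TPM or more ran Plxnb2, Efna1, Ephb4, Epha7, Slit2, Robo2, Sema3c, Sema3a, Efnb1, Epha3, Ephb3, Plxnd1 and Sema3e. The ranges over the libraries of neighbours in this order were apart in 8 of 12 cases. Epha7 and Slit2, Sema3a and Efnb1, Efnb1 and Epha3, and Plxnd1 and Sema3e overlapped, so these were not ordered beyond their spread. The order is that of gene TPM, and some neighbours that were apart turned with the unit. Per kb of merged exons Robo2, at 14.5 and 13.3, lay below Sema3c, at 33.7 and 32.4, and Plxnb2 below Efna1. Over coding transcripts Slit2 lay below Robo2 and Sema3c below Sema3a. Epha7, at 21.0 and 21.4 TPM, then also lay below Epha3, at 26.3 and 24.2 TPM. Over the 54 members with a mean of at least 1 TPM, 18 of 53 neighbours were apart and 35 overlapped.

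Between the pools, guidance genes differed little. Of the 54 members compared, 0 were 2-fold or more apart, on the log2(TPM + 1) scale, which understates the difference of low genes. Among all protein-coding genes that averaged 1 TPM or above, 1.21% were that far apart (1.02% higher and 0.193% lower in replicate 2), so a count of 0 among 54 is near this background. Replicate 2 was higher for 19 members and lower for 35, beside 48.1% higher and 51.6% lower among protein-coding genes. The median difference, replicate 2 minus replicate 1, was -0.02 for members and -0.01 for protein-coding genes, and the median size of a difference was 0.11 and 0.10. The SD of the difference was 0.18 for the 27 members from 1 to 10 TPM and 0.37 for protein-coding genes of that range. For the 26 members from 10 to 100 TPM it was 0.17, beside 0.21.

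The members furthest apart were Ntn5, 0.48 higher in replicate 2, and Efnb2 and Unc5c, which each differed by -0.44. Differences past 0.3 in size were also seen for Plxna3 (0.34), Ephb6 (0.34), Epha4 (-0.31) and Efna4 (-0.31), and these 7 genes were picked out after their values were seen. The authors' credibility bounds cover read assignment and counting inside a library. By these bounds 6 of the 54 members had intervals apart, a smaller share than the 17.7% of protein-coding genes. All 6, Ephb4, Epha3, Efna4, Efnb2, Plxna1 and Sema5a, were lower in replicate 2 and 0 were higher. Among protein-coding genes 11.1% had bounds apart with a lower and 6.53% with a higher level, so the share of members that were lower is at this background. For Efnb2 the bounds ran from 16.2 to 17.8 TPM in replicate 1 and from 11.4 to 13.1 TPM in replicate 2, and for Ephb4 from 45.6 to 48.2 and from 39.9 to 42.9 TPM. The endothelial list was lower in replicate 2 for 4 of 6 genes, beside 51.6% of protein-coding genes, with differences from -0.15 (Tek) to 0.04 (Cldn5). The liver, skeletal muscle and thymus lists were higher. The part of these lists in the differences was not tested.

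**Figure D3:**
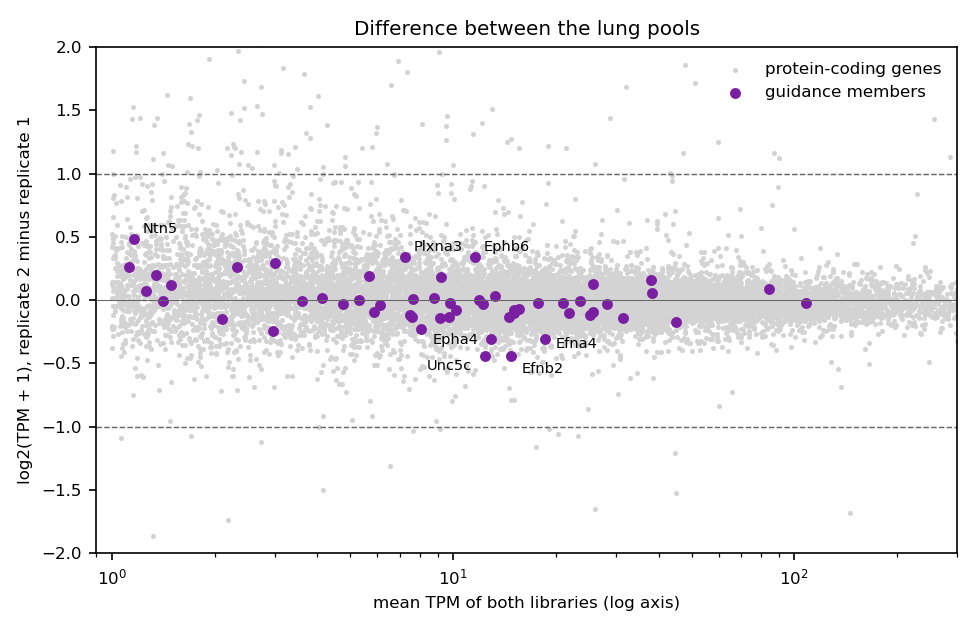
Difference between the libraries, replicate 2 minus replicate 1 on the log2(TPM + 1) scale, against mean TPM (log axis, cut at 300 TPM and at 2 on either side), for members (purple) and protein-coding genes (grey). All 54 members compared lie between -0.44 and 0.48, inside the dashed lines at 2-fold.

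Some of these differences depended on whether TPM or counts were used. Unc5c, at 1717 and 1198 expected counts, differed by -0.44 as TPM but by -0.04 as rounded counts with edgeR's TMM scaling. Its transcript of 357 nt, Unc5c-206, took 4.24 TPM on 29 counts in replicate 1 and 1.45 TPM on 7 counts in replicate 2, while the coding transcript Unc5c-202 was at 5.73 and 5.93 TPM. Plxna3 turned from 0.34 as TPM to -0.10 with TMM scaling. Ephb6 shrank from 0.34 to 0.09. Efnb2 and Ntn5 kept differences of -0.47 and 0.47 with TMM scaling.

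Gene levels sum over transcripts, and for several leading members much of the level lay in transcripts that are not annotated as coding. Of the 54 members compared, 48 (88.9%) had a protein-coding transcript as the most abundant in both libraries, beside 91.7% of protein-coding genes. The median coding share of a member's TPM was 98.9%, and 98.8% over protein-coding genes. Among genes with several transcripts the median was 89.9% for members and 92.4% for protein-coding genes. The share was 99% or more for 27 members, among them Ephb4, Epha3, Plxnd1, Robo1 and Efnb2, and under 75% for 14, of which 9 stand at 10 TPM or more. No such counts over all protein-coding genes are given here, so these describe the members alone.

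Plxnb2 shows how short transcripts weigh in TPM. Its coding transcript Plxnb2-202 of 6377 nt took 49.9 ± 0.417% of the gene's TPM, and Plxnb2-205, a processed transcript of 841 nt, took 44.1 ± 0.573%. In expected counts the former had 8996 and 6220 and the latter 942 and 648. Coding transcripts alone gave Plxnb2 56.0 and 54.6 TPM, below the level of Efna1.

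Retained-intron transcripts were prominent in Slit2. They held 51.6% and 52.5% of its TPM, with Slit2-207 (3264 nt) at 35.4 ± 2.07%, while the leading coding transcript Slit2-202 held 41.6 ± 2.45%. Its coding transcripts gave 16.9 and 16.8 TPM, so the higher gene level of replicate 2 did not extend to them. For Robo2 a retained-intron transcript, Robo2-209, was the most abundant at 32.3 ± 1.82%, and coding transcripts gave 21.1 and 18.3 TPM. Sema3c-205, a retained intron of 1549 nt, took 25.5 ± 3.25% of Sema3c and Sema3e-202, of 5206 nt, took 34.4 ± 3.44% of Sema3e. Sema6a was led by the retained-intron transcript Sema6a-209 (24.7 ± 3.13%) and Epha5 by Epha5-207 (50.1 ± 7.34%).

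Of the 54 members, 7 changed their leading transcript between libraries, a larger share than the 6.93% of protein-coding genes. Among genes with several transcripts it was 7 of 43 members, beside 933 of 9801 protein-coding genes. The difference in share was not tested. Epha7 was split between the coding Epha7-201 (28.8 ± 3.12%) and the processed transcript Epha7-208 (28.0 ± 1.58%), with a lead that turned. In Epha4 the lead passed from Epha4-205, a transcript annotated for nonsense-mediated decay, at 65.2% in replicate 1 and 0.0100% in replicate 2, to the coding Epha4-201, at 0.0800% and 70.0%. These transcripts are 6315 and 6328 nt long, and the authors' posterior means spread the reads between them, at 38.1% and 22.9% for Epha4-205 and 24.8% and 41.6% for Epha4-201. The coding share of Epha4, 15.6% and 72.0% of TPM, therefore depends on the estimate used. Sema4c, Sema3b, Sema4a and Ephb2 passed from a coding transcript to another coding transcript. Sema6c passed between processed transcripts of 450 and 347 nt that rest on 7 counts at most.

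**Figure D4:**
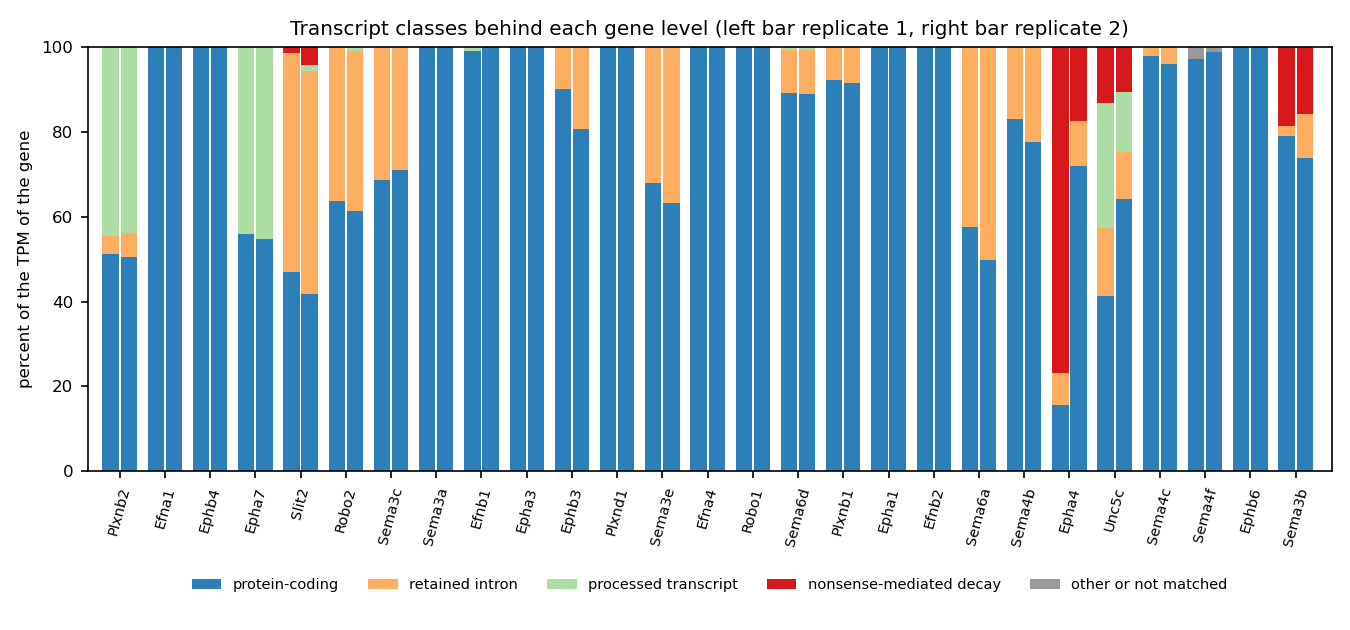
Share of each gene's TPM by annotated transcript class, in percent, for the 27 members with a mean of at least 10 TPM, left bar replicate 1 and right bar replicate 2. Slit2 and Plxnb2 are about evenly split between coding and other transcripts, and Epha4 turns from nonsense-mediated decay to coding between the libraries.

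Some members that are neighbours in the genome differed widely in level. On chromosome 3, Efna1, Efna3 and Efna4 lie on the minus strand with gaps of 32.8 and 10.4 kb, at 84.4 ± 3.97, 5.66 ± 0.608 and 18.6 ± 2.95 TPM. On chromosome 4, Ephb2 at 1.26 ± 0.0778 TPM and Epha8, at the limit of detection, are 93.4 kb apart. Sema3d, Sema3a, Sema3e and Sema3c lie within 5.35 Mb of chromosome 5, all on the plus strand, at 6.11 ± 0.156, 25.7 ± 1.69, 21.0 ± 0.240 and 28.2 ± 0.368 TPM. Sema3b and Sema3f on chromosome 9, 72.3 kb apart, were close in level at 10.2 ± 0.445 and 9.22 ± 0.884 TPM. Robo1 and Robo2 lie on opposite strands of chromosome 16 with a gap of 846 kb, at 17.7 ± 0.212 and 31.5 ± 2.30 TPM. The order of these 2 is uncertain, since per kb of merged exons Robo1 was at 15.7 and 15.3 and Robo2 at 14.5 and 13.3.

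Exons of 16 of the 64 members overlapped another gene, on the opposite strand for 14, and the strand setting of the library is not given in the sources used here, so reads of such partners cannot be told apart. No share over all protein-coding genes is given here, so the overlap counts describe the members alone. More than 10% of exon bases were shared in 4: Ntn5 with Sec1 (23.4%), Efna3 with Gm15998 (14.1%), Plxna1 with Gm26811 (10.7%) and Efna4 with 4731419I09Rik (10.5%). Sec1 stood at 0.620 and 0.710 TPM, so the level of Ntn5 is uncertain. Gm15998 stood at 2.62 and 3.82 TPM, beside Efna3 at 5.23 and 6.09 TPM, so the level of Efna3 is uncertain as well. Epha1, a receptor of A ephrins at 15.6 and 14.7 TPM, shares 236 nt (6.01%) with Zyx, a focal adhesion gene at 170 and 156 TPM.

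The median CG count at the start site was similar in members with little and with much RNA. An entry in the RefSeq promoter table was found for 55 members and none for 9. The dinucleotide CG, which reads the same on both strands, occurs in 94.6% of all promoters of that length, with a median of 7 per window. Members had a median of 21, from 2 in Sema3a to 56 in Epha8. The median was 20 for members at 10 TPM or more, 24.5 from 1 to 10 TPM and 19.25 under 1 TPM. Among protein-coding genes the same classes had medians of 21, 17 and 3. The 10 members under 1 TPM in either library varied widely around their median, from 3 in Ntn5 and 4 in Plxnb3 to 31 in Ntn4 and 56 in Epha8. No test was made, and a count of CG in a window is a description of sequence.

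**Figure D5:**
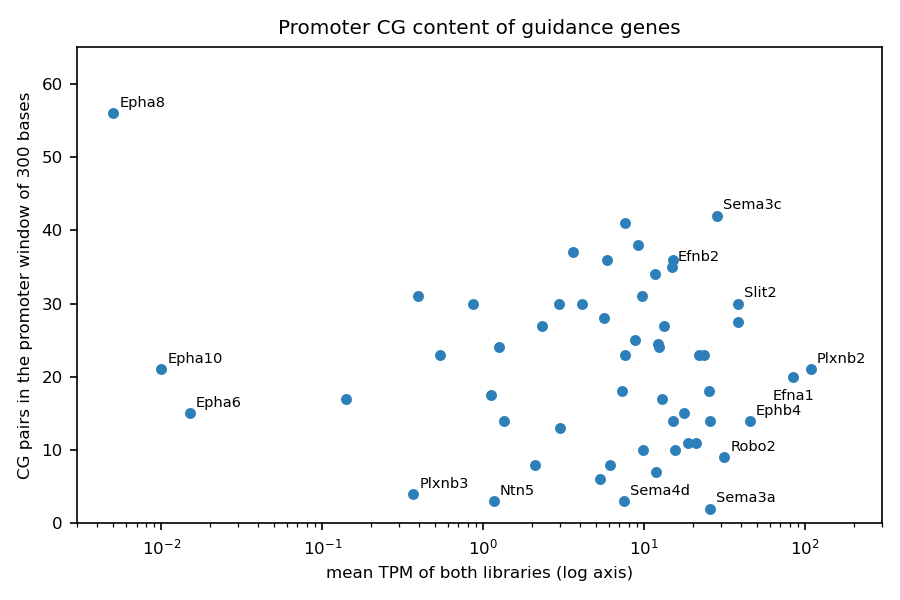
CG count in the 300-base window at the RefSeq start site against mean TPM (log axis) for the 55 members with an entry, as the median where a gene has several entries. Epha8 lies at the upper left with 56 CG, and Sema3a at the lower right with 2.

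Partners through which these families signal were examined from fixed lists. The first list held 15 coreceptors, alternative receptors and related genes, the last including Rgma, Rgmb, Ntng1 and Ntng2. Of these 15 genes 10 were detected, a share close to the 61.5% of all protein-coding genes, with a median of 6.98 ± 0.0283 TPM. Of the 10 at a mean of at least 1 TPM, 0 were 2-fold apart between libraries, near the background of 1.21%. Nrp1, the neuropilin of class 3 semaphorins and VEGF, was highest at 75.2 TPM in each library, followed by the netrin and RGM receptor Neo1 (24.6 and 23.0 TPM), the endothelial Robo4 (19.7 and 20.3 TPM) and Flrt3 (14.3 and 13.4 TPM), a membrane protein that binds Unc5 and Robo receptors. The netrin receptor Dcc was at 0.0200 and 0.0800 TPM and Dscam at 0.0100 TPM in both, named after their values were seen. Of 35 further partners, most of them intracellular, 34 were detected, with a median of 11.7 ± 1.56 TPM, and 0 were 2-fold apart. The highest were Sdcbp, a PDZ protein that binds ephrin-B tails, at 345 and 360 TPM, Dpysl2, a collapsin response mediator of semaphorin signalling, at 275 and 263 TPM, Gipc1, a PDZ adaptor of plexins and neuropilins, at 156 and 147 TPM, and Adam10, a protease that cuts ephrins, at 75.2 and 74.6 TPM.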

How the data were processed

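Total RNA was measured in 2 pools of lung. Extraction used Ambion mirVana, and 10 ng of RNA above 200 nt, with spike-ins, went into each library, per the labels' protocols. The authors deposited gene and transcript tables on mm10 with GENCODE M4, per the notes beside the files. The aligner, quantifier and strand setting are not given in the sources used here. The expected counts the authors deposited are estimated reads per gene or transcript. The deposited TPM and FPKM values divide by effective length, spike-ins included in the total. The percent columns the authors deposited give a transcript's percentage of its gene's TPM. The deposited score columns hold the bounds of a credibility interval inside a library, and posterior means of TPM and counts stand beside the maximum likelihood values.

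Symbols, classes and coordinates came from GENCODE M21 (the same build) by identifier without version, for 42462 of 43346 gene rows. The 26345 rows without a gene identifier held 2.30% and 2.32% of expected counts and stayed out, except that TPM totals include them. Of 319 transcript rows of members 317 were matched. Differences are on log2(TPM + 1), pseudocount 1, with 2-fold counted at a mean of at least 1 TPM. For alternatives, edgeR 4.0.16 (TMM) and DESeq2 1.42.0 (size factors) in R 4.3.3 were run on expected counts rounded to integers. Other steps used Python 3.11.15, pandas 2.3.3, NumPy 2.4.6 and matplotlib 3.10.9, and the calling rules were tested on simulated data. Members and lists were chosen with earlier results of these data known. Members named with values were those at 20 TPM or more, the highest and lowest of each family, the markers Efnb2, Ephb4, Sema3c and Slit2, those nearest 1 TPM, those of a printed ratio, those whose leading transcript was not coding or differed, and the 4 highest of each partner list. Others are named where they are said to have been picked afterwards, or to describe a transcript, a neighbour, an overlap or a promoter. Alternatives were other units, scalings, pseudocounts, thresholds and each library alone.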

Additional observations from a re-analysis of the deposited data

How the results depend on the processing

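Of 64 members 52 were detected as reported, 48 to 56 over other units and limits other than 5 TPM, 41 at 5 TPM, and 54 and 52 in each library alone. Of the netrins, 1 was detected as reported, 0 as FPKM or at 5 TPM, and 2 per kb of merged exons, at 0.5 TPM or in replicate 2 alone. The median of 8.55 TPM moved to 8.94 as posterior means, 5.79 as FPKM, 9.01 without spike-ins and rows with no gene identifier, 10.1 expected counts per kb of merged exons (another scale), 9.99 over members with a mean of at least 1 TPM, and 7.12 TPM over protein-coding transcripts alone, an alternative added after the data were seen. Each library alone gave 8.46 and 8.65. No alternative scaling gave a member 2-fold apart, and credibility bounds, also added afterwards, gave 6. Between 18 and 21 of 24 ratios were held. Per kb of merged exons the sign turned for Sema3c over Plxnd1 (-0.25), Plxna1 over Plxna2 (0.70), Slit2 over Robo1 (-0.23), Robo1 over Robo2 (0.16) and Unc5b over Unc5c (0.66). Counts not divided by length turned Sema3c over Plxnd1 (-0.28) and Robo1 over Robo2 (0.12) and, held on neither scale, Sema3c over Sema3a (-0.01), and coding transcripts alone turned Sema3c over Plxnd1 (-0.15), Sema3c over Sema3a (-0.39), Slit2 over Robo1 (-0.07) and, held on neither scale, Epha2 over Epha4 (1.17 ± 1.32) and Plxna1 over Plxna2 (0.14 ± 0.24). Signs no longer held were Sema6d over Plxna1 per kb of merged exons (0.14), Efnb2 over Efnb1 in counts (-0.39), and Robo1 over Robo2 (-0.15) and Unc5b over Unc5c (-0.10) over coding transcripts. Without a turn, Sema3e over Plxnd1 became held per kb of merged exons (-0.55), in counts (-0.20) and over coding transcripts (-0.66). Sema3c over Sema3a became held per kb (0.95) and at a limit of 1 SD. Epha2 over Epha4 became held in counts (-0.79), as posterior means and at 1 SD. The cause was not tested beyond the change of length or transcripts itself. A coding lead was found for 48 of 54 members, 37 of 41 at 5 TPM or more and 49 in each library alone. Replicate differences and held signs need both libraries and had no value with either left out. No paired analysis was possible because there is a single group. Depth limits Epha6, Epha8 and Epha10, at 0 to 2 counts.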
